A study of Homo sapiens with 25 samples.

Results

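The H3K4me3 landscape of HCT116 cells, a human colorectal carcinoma line, was compared between cells carrying a FOXD2 lentiviral vector and cells carrying the empty vector. The comparison uses 2 of the 25 samples of the series (18 samples have a peak list). One group is the library labelled Control (pSin-Pur-MCS-Puro vector without an insert), and the other is the library labelled FOXD2 (pSin vector with the full-length FOXD2 coding sequence). Both groups are stable, puromycin-selected HCT116 cells, and in both the mark was precipitated from native chromatin cut with MNase. Each group has 1 H3K4me3 library, so the H3K4me3 values below describe these 2 libraries, have no error from replicates and carry no test. H3K27ac and H3K4me1 have 2 libraries per group in the same design and were used as separate readouts at the H3K4me3 regions. The labels do not say whether the libraries of a group came from separate cultures.

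H3K4me3 is trimethylation of lysine 4 on histone H3. It is laid down at the starts of active genes and of genes poised for activity, mainly by the SETD1 and MLL1/MLL2 methyltransferases, whose CXXC subunits or domains bind unmethylated CpG dinucleotides. H3K4me1 marks enhancers and is placed there by MLL3 and MLL4 (KMT2C and KMT2D), and H3K27ac marks active promoters and enhancers. A wide H3K4me3 domain is often found at genes that define a cell type. FOXD2 is a forkhead transcription factor.

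The bases before the starts of 7 genes are shown because they span the patterns described below: FOXD2 itself, 2 promoters whose H3K4me3 widened, 1 that narrowed, 2 that gained it and 1 that lost it. Each run is the 250 bases before a listed start, 5′ to 3′ on the gene's strand, from RefSeq's promoter table for GRCh38.p14. Capitals mark CpG dinucleotides.
FOXD2, chr1:47437794-47438043, plus strand, steady: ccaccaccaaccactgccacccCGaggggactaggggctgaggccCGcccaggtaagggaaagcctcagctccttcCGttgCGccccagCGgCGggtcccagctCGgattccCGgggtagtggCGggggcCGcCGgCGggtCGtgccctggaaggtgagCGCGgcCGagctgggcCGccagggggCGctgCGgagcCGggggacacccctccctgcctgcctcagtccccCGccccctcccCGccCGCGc
AQP3, chr9:33447594-33447843, minus strand, widened: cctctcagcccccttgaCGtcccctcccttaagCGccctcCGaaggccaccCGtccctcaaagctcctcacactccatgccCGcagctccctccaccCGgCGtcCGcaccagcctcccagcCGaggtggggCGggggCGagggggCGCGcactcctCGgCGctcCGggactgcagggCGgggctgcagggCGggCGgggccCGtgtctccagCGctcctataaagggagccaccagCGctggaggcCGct
MAB21L4, chr2:240892036-240892285, minus strand, widened: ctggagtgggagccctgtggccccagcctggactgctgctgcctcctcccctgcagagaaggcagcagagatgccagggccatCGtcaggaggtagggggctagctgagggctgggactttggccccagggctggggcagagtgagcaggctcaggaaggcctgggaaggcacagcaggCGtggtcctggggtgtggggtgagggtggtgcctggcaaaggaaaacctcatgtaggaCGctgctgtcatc
HS3ST1, chr4:11428895-11429144, minus strand, narrowed: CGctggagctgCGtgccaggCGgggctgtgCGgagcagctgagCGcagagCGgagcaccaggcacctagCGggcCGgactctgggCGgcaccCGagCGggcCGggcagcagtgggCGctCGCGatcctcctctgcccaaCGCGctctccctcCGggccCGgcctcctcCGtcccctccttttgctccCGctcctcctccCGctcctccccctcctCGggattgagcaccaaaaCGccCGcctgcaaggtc
CASP4, chr11:104968575-104968824, minus strand, appeared: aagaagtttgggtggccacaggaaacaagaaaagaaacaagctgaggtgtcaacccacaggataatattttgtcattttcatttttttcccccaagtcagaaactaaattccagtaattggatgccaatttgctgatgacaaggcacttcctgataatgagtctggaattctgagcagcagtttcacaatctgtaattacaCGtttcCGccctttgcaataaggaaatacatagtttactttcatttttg
FIGLA, chr2:70790644-70790893, minus strand, appeared: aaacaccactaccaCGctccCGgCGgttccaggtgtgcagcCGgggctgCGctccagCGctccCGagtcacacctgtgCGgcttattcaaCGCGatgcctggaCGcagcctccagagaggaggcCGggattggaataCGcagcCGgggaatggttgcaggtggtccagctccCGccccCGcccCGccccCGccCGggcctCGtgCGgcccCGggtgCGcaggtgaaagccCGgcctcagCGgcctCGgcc
SSTR5, chr16:1078576-1078825, plus strand, lost: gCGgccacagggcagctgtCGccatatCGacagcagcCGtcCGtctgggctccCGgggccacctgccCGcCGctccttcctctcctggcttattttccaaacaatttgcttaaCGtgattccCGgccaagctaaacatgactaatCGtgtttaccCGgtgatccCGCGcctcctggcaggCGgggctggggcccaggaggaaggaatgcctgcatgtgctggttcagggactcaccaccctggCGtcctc
The runs before FOXD2, AQP3, HS3ST1 and FIGLA hold 24, 23, 25 and 26 CpG. SSTR5 has 16, and MAB21L4 and CASP4 have 3 and 2. The runs before MAB21L4 and FIGLA lie outside the H3K4me3 region itself, which is within 1 kb of the start, and the other 5 lie inside it.

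The control list held 24528 peaks on chromosomes 1 to 22 and X, covering 35.9 Mb, and the FOXD2 list held 22975, covering 33.6 Mb. Peaks of the 2 lists that overlapped by at least 1 bp were merged into 26149 regions. The markers fixed for the cell type were marked as the label says: all 8 epithelial markers (EPCAM, CDH1, KRT8, KRT18, KRT19, CDX2, GRHL2, ELF3) had H3K4me3 in both lists, against 1 of 6 blood markers (SPI1), 1 of 5 fibroblast markers (PDGFRA) and 0 of 3 endothelial markers in each list. Of 4 neural markers, none had H3K4me3 in the control list and 1 (RBFOX3) had it in the FOXD2 list.

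At the FOXD2 gene (chr1:47438044-47440691, plus strand) the mark was present in both lists and stronger in the FOXD2 list. The control peak covered 2973 bp with a fold enrichment, the authors' own value for a peak over their background, of 66.2. The FOXD2 peak covered 3608 bp with a fold enrichment of 157. The FOXD2 peak reached further into the gene, covering 1585 bp of it against 900 bp in the control list, and its summit lay 790 bp after the gene start, while the control summit lay before it (offset -642 bp). Ranked among the 20508 regions present in both lists, FOXD2 moved from percentile 48.5 to percentile 98.7 of fold enrichment. This rise of 50.2 points was the largest of all shared regions. The vector carries the FOXD2 coding sequence, and fragments from its copies cannot be told apart from those of the gene, so the added signal in the gene body may lie on either.

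Most H3K4me3 was common to both cell populations and kept its width. Of the 26149 regions, 20508 (78.4%) had a peak in both lists, 3772 were in the control list only (14.4% of all regions) and 1869 in the FOXD2 list only (7.15%). Shared regions held 84.6% of the control peaks and 91.9% of the FOXD2 peaks. The width of a region in a list is the number of its bases that the list's peaks cover. The median ratio of FOXD2 to control width over shared regions was 0.973 (log2 ratio -0.04), and the ratio lay between 0.606 and 1.29 for the central 90% of them. Of the shared regions, 167 widened at least 2-fold (0.814%) and 529 narrowed at least 2-fold (2.58%).

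The order of regions by fold enrichment was also largely kept. Across the 20508 shared regions, which come from the same 2 libraries, Spearman's rho between the lists was 0.938 for fold enrichment and 0.962 for width. The percentile of fold enrichment moved by at most 10 points at 74.4% of them, with an SD of 10.2 points. No second H3K4me3 library was analysed here, so the spread between repeats of this mark is not known. For other marks of the series, the 2 control libraries of H3K4me1 shared 71.7% of their regions with a rho of 0.816 for fold enrichment, and the 2 control libraries of H3K27ac shared 39.6% with a rho of 0.645. The 2 H3K4me3 lists, from different groups, were thus more alike than those pairs of lists from 1 group, which hold other marks and far more regions.

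Promoters were taken as regions within 1 kb of a gene start. Starts came from RefSeq's promoter table. For the genes with no entry there, either end of the gene was used, since the strand was not available, so a region at such a gene may lie at its beginning or at its far end. These genes are named below with the words "gene end". H3K4me3 was found at 13391 promoters of 12652 protein-coding genes, of which 13108 were marked in both lists, with a median width of 2166 bp in the control list and 2123 bp in the FOXD2 list. Of those 13108, 21 widened at least 2-fold (0.16%) and 52 narrowed at least 2-fold (0.397%). Of all 13391, 83 appeared (0.62%; peak in the FOXD2 list only) and 200 were lost (1.49%; peak in the control list only). In all, 351 of the 12652 genes had a promoter in any of these classes (2.77%). The remaining 13035 promoters are called steady below.

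**Figure D1:**
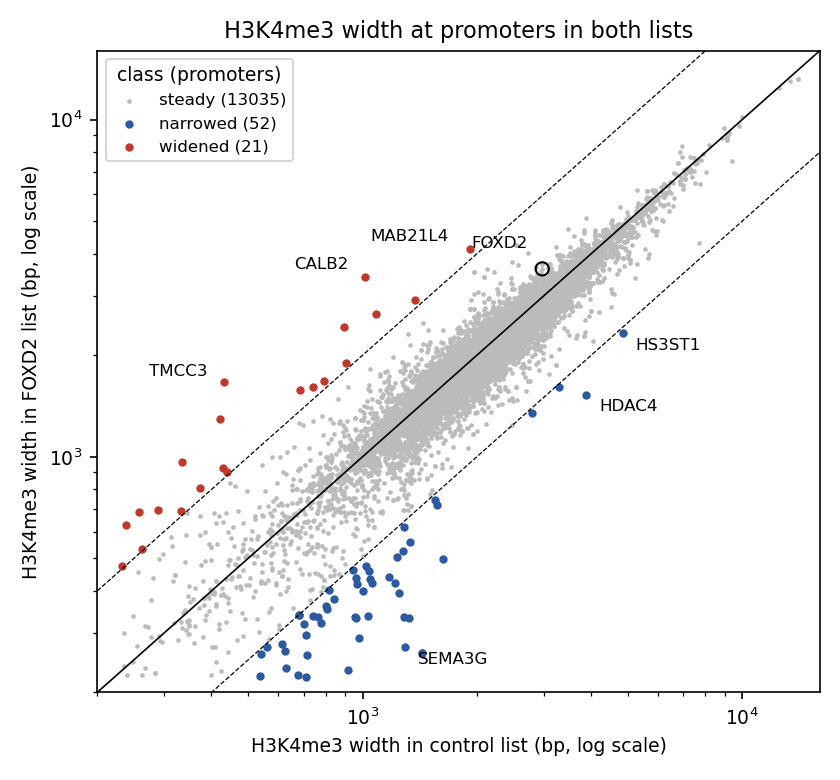
H3K4me3 width in the FOXD2 list against the control list, both in bp on log scales, for the 13108 promoters marked in both lists (1 library per group). The solid line is equality and the dashed lines are 2-fold; 21 promoters lie on or above the upper line and 52 on or below the lower one, mostly at small widths, and FOXD2 (circled) lies between them at 2973 and 3608 bp.

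The promoters that changed were narrow and weakly enriched. Widened promoters had a median width of 431 bp in the control list and 1294 bp in the FOXD2 list, and narrowed promoters 972.5 bp and 347 bp. The median of the higher fold enrichment of the 2 lists was 14.0 at widened and 15.7 at narrowed promoters, against 114.8 at steady ones. Most of the changes came from 1 peak that was wider or narrower rather than from more or fewer peaks: the promoter had a single peak in each list at 17 of 21 widened and 42 of 52 narrowed promoters. Just inside the 2-fold limit was ABL2, which encodes a tyrosine kinase, with 262 bp in the control list and 532 bp in the FOXD2 list, and just outside it was RGS3 with 345 and 683 bp. For narrowing, TMEM276-ZFTRAF1 (gene end) with 680 and 340 bp lay inside, and JCAD with 2470 and 1240 bp outside.

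CALB2, which encodes the calcium-binding protein calretinin, gained the most bases among widened promoters (gene end, chr16:71357963-71361376). Its H3K4me3 covered 1015 bp in the control list and 3414 bp in the FOXD2 list, and its fold enrichment was 33.5 and 90.4. MAB21L4 (chr2:240892986-240897104) covered 1923 and 4119 bp. KRT7, a keratin of simple epithelia (gene end, chr12:52232711-52235356), covered 1088 and 2645 bp. These 3 had both a greater width and a higher fold enrichment in the FOXD2 list. CALB2 and KRT7 had 1 peak in each list, while MAB21L4 had 2 control peaks and 1 FOXD2 peak.

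PIK3IP1, an inhibitor of phosphoinositide 3-kinase, covered 892 bp in the control list and 2432 bp in the FOXD2 list. AQP3, a water and glycerol channel of epithelia, covered 1375 and 2908 bp (chr9:33445293-33448200), and its fold enrichment was 39.4 and 82.9. TMCC3 covered 431 and 1665 bp. PIK3IP1, AQP3 and TMCC3 also ranked higher in the FOXD2 list, with AQP3 moving from percentile 38.3 to 60.5. PC, the mitochondrial pyruvate carboxylase, covered 905 and 1901 bp. PLAT, the tissue plasminogen activator (gene end), covered 422 and 1294 bp. KATNBL1 differed from the others: its width was 684 and 1582 bp, but it was strongly enriched in both lists and its fold enrichment was lower in the FOXD2 list (113 in control, 101 with FOXD2). Over all 21 widened promoters, fold enrichment was higher in the FOXD2 list at 16 and its percentile at 18. At 8 of the 21, another promoter of the same gene was steady, so the change covers only part of that gene's H3K4me3. Measured as bases covered within 2 kb of the start, MAB21L4, AQP3 and PC gained less than 2-fold.

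Among the 11 widened promoters with smaller changes was SHH, the Hedgehog ligand, with 740 bp in the control list and 1609 bp in the FOXD2 list. CREB5, a leucine-zipper transcription factor, covered 334 and 963 bp. SHH and CREB5 were picked after their values were seen. Where a listed start gives the strand (16 of the 21), the gain lay before the start, after it or on both sides. Within 5 kb, covered bases before the start were higher in the FOXD2 list at 14 of 16 and after the start at 10 of 16. The median covered length before the start was 260 bp in the control list and 618.5 bp in the FOXD2 list. MAB21L4 gained 2126 bp before its start and 0 bp after it, SAMD13 gained 499 bp after its start only, and TMCC3 gained 671 bp before and 563 bp after. Of all 10708 promoters with a listed start and H3K4me3 in both lists, 3877 had more covered bases before the start in the FOXD2 list and 4346 after it.

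**Figure D2:**
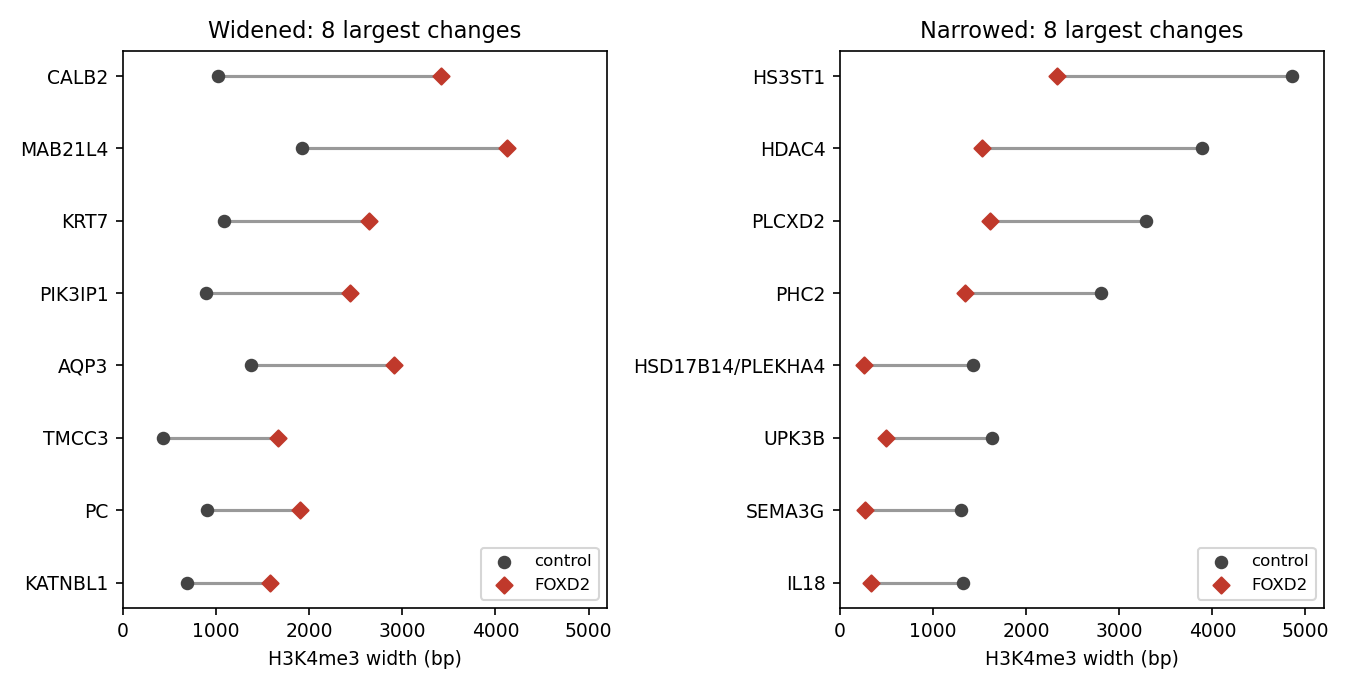
H3K4me3 width in bp in the control list (grey circles) and the FOXD2 list (red diamonds) at the 8 widened and the 8 narrowed promoter regions with the largest change in bp, 1 library per group. CALB2 spans 1015 to 3414 bp, and HS3ST1 starts from the widest control region shown, 4858 bp, and ends at 2328 bp.

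HS3ST1, which adds sulfate to heparan sulfate chains, lost the most bases among narrowed promoters (chr4:11425892-11430749). It covered 4858 bp in the control list and 2328 bp in the FOXD2 list, with nearly equal fold enrichment (111 and 109), so its peak was shorter but not lower. HDAC4, a class IIa histone deacetylase, covered 3888 and 1527 bp (chr2:239264706-239268593). PHC2, a subunit of Polycomb repressive complex 1, covered 2800 and 1346 bp while its fold enrichment was 121 and 129. HDAC4 and PHC2 therefore ranked higher in the FOXD2 list although their peaks were narrower.

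PLCXD2 (gene end) covered 3291 bp in the control list and 1615 bp in the FOXD2 list. The 2 regions shared by HSD17B14 and PLEKHA4 (gene end) together covered 1430 and 261 bp. UPK3B, a uroplakin of the urothelium, covered 1630 and 496 bp, and SEMA3G, a secreted semaphorin, 1296 and 273 bp. These promoters all covered under 2 kb in the FOXD2 list. IL18, an inflammatory cytokine (gene end), covered 1322 and 332 bp. RASIP1, a Ras-interacting protein of vessel endothelium, covered 1282 and 334 bp, and ARRDC5 (gene end) 1575 and 718 bp. At HSD17B14 and PLEKHA4, UPK3B, IL18 and RASIP1 the control width is the sum of 2 separate regions. The FOXD2 list had a peak in only 1 of the 2. SMAD3, the transcription factor activated by TGF-beta receptors, had 1 promoter that covered 1330 bp in the control list and 557 bp in the FOXD2 list. Over all 52, fold enrichment was higher in the FOXD2 list at 4 and its percentile was lower at 44. At 13 of the 52, another promoter of the same gene was steady. HS3ST1, PLCXD2, PHC2 and ARRDC5 lost less than 2-fold when bases covered within 2 kb of the start were counted. PLEKHA4, UPK3B and IL18 did so with a promoter window of 500 bp.

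At most of the 37 narrowed promoters with a listed start, the mark was shorter on both sides. Covered bases within 5 kb were lower in the FOXD2 list before the start at 32 and after it at 32. Of all 10708 promoters with a listed start and H3K4me3 in both lists, they were lower before the start at 6234 and after it at 5876. HDAC4 and HS3ST1 lost most on the gene side. HDAC4 went from 2808 to 730 bp after the start and from 1080 to 797 bp before it, and HS3ST1 from 3002 to 1247 bp after and from 1856 to 1081 bp before.

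The appeared promoters were short and weak. Their width ran from 223 to 1386 bp with a median of 398 bp, and their fold enrichment from 3.31 to 18.3 with a median of 6.63, under 10 at 69 of 83. The highest was at FIGLA, a transcription factor of oocytes (chr2:70789520-70790019), with a 500 bp peak at a fold enrichment of 18.3. BCAR3, an adaptor protein of focal adhesions, had a fold enrichment of 13.4, DDN (gene end), which encodes dendrin, 13.2, and CD68, a lysosomal protein of macrophages, 12.4. DENND2B had 12.2, and VGLL4, a cofactor that binds the TEAD factors, had 12.1 over 855 bp. MUC8, a mucin, had 11.6. CASP4, the inflammatory caspase that senses bacterial lipopolysaccharide, had 11.5 over 822 bp (chr11:104968171-104968992). These 8 are the strongest of the class, and all lay far below the median of steady promoters. At 27 of the 83, another promoter of the same gene was steady in both lists, and at 6 a control peak lay within 2 kb.

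Lost promoters were more numerous than appeared ones and as weak. The control list also held more peaks, 24528 against 22975. With both lists cut to equal length by q-value, 152 promoters were lost and 96 appeared. Their width ran from 227 to 1579 bp with a median of 431 bp, and their fold enrichment from 3.39 to 27.3 with a median of 6.60, under 10 at 168 of 200. CFAP65, a protein of cilia and sperm tails, had the highest, 27.3 over 285 bp in the control list. MC5R, a melanocortin receptor, had 22.3 and SSTR5, a somatostatin receptor, 21.7. SSTR5 was the widest of the 8 strongest, with 1285 bp (chr16:1077847-1079131). NFASC, a neuronal adhesion protein, had 20.8 over 820 bp, and MACC1, a gene linked to metastasis of colon cancer, 20.6. ZNG1A had 19.5, with near-identical gene copies that make its mapping uncertain. BFSP1, a lens filament protein, had 18.6, and SMPD3, a neutral sphingomyelinase (gene end), 18.4. For BFSP1 the nearest FOXD2 peak was only 617 bp away, and merging peaks across a gap of 500 bp or more changed its class, as a gap of 1000 bp did for AJUBA, a LIM-domain scaffold. At 57 of the 200 lost promoters another promoter of the gene was steady, and 71 of the 200 lay at a gene end.

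H3K27ac and H3K4me1, which were not used to choose the classes, were measured as covered bases within 2 kb of the start and expressed as a percentage of the library's mean over all H3K4me3 promoters. At the 21 widened promoters, H3K27ac was 88.7 and 77.4% in the 2 control libraries and 120.7 and 108.6% in the 2 FOXD2 libraries. The means were 83.0% ± 7.97 and 114.7% ± 8.55 (SD, n = 2 each), and the groups did not overlap. H3K4me1 there was 105.3 and 115.6% in control and 131.1 and 141.9% with FOXD2, again without overlap. At the 83 appeared promoters, H3K27ac was 40.4 and 34.2% in control and 58.3 and 66.3% with FOXD2. H3K4me1 there was 58.1 and 63.5% in control and 85.3 and 94.3% with FOXD2. So both marks were higher in both FOXD2 libraries where H3K4me3 had widened or appeared. With 2 libraries against 2, an exact two-sided permutation test cannot give a p below 0.333, so none is given.

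At narrowed and lost promoters the same marks differed less. H3K27ac at narrowed promoters was 98.3 and 83.5% in control and 81.7 and 91.1% with FOXD2, and at lost promoters 85.6 and 62.4% in control and 62.8 and 83.2% with FOXD2. In both classes the groups overlapped. H3K4me1 did not overlap: it was 100.1 and 106.4% in control and 94.2 and 92.6% with FOXD2 at narrowed promoters, and 79.5 and 83.0% in control and 66.5 and 69.8% with FOXD2 at lost promoters. At steady promoters both marks were close to 100% of the mean in every library. These are 13035 of the 13391 promoters in that mean, so the measure itself sets this value and it shows nothing about change there.

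**Figure D3:**
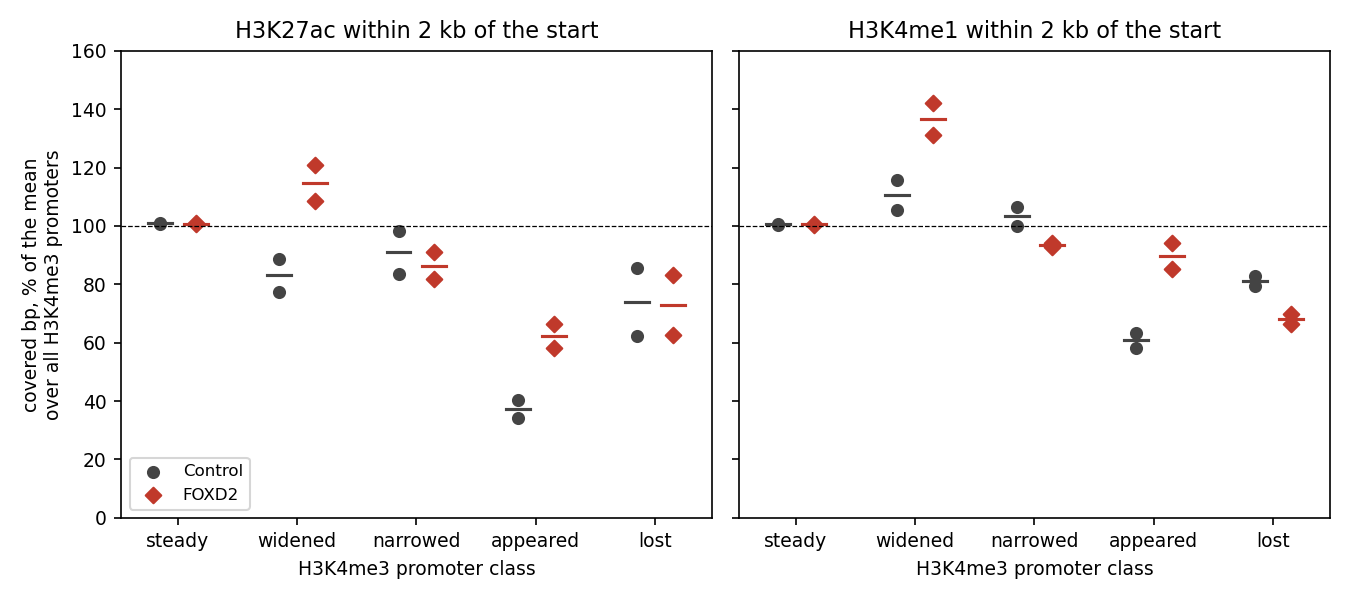
Covered bases of H3K27ac (left) and H3K4me1 (right) within 2 kb of the start, as a percentage of each library's mean over all H3K4me3 promoters, by H3K4me3 class. Each point is 1 library (grey circles control, red diamonds FOXD2, 2 per group) and short lines are group means; the groups are apart at widened and appeared promoters for both marks and overlap for H3K27ac at narrowed and lost ones.

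Promoter by promoter, both FOXD2 libraries had more H3K27ac than both control libraries at 12 of 21 widened promoters, while this held for 26.5% of all H3K4me3 promoters. For H3K4me1 it held at 10 of 21 widened and 45 of 83 appeared promoters, against 13.9% of all. Both FOXD2 libraries had less H3K4me1 than both control libraries at 74 of 200 lost and 15 of 52 narrowed promoters, against 11.1% of all. For H3K27ac the appeared promoters did not differ much from the background, with 24 of 83 higher in both FOXD2 libraries. H3K27ac was lower in both FOXD2 libraries at 15 of 200 lost and 7 of 52 narrowed promoters, against 8.3% of all.

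Single genes show the range. At MAB21L4 the groups overlapped, with 3349 and 1445 bp of H3K27ac in control and 2624 and 3548 bp with FOXD2, as they did at KATNBL1, with 590 and 961 bp in control and 1124 and 638 bp with FOXD2. Near AQP3, H3K27ac covered 1998 and 0 bp in the control libraries and 3882 and 4000 bp, the whole window, in the FOXD2 libraries. Near TMCC3 it covered 455 and 0 bp in control and 2948 and 1787 bp with FOXD2, and near PLAT 1193 and 875 bp in control and 3436 and 3618 bp with FOXD2. AQP3, TMCC3 and PLAT had more H3K27ac in both FOXD2 libraries. KRT7 left little room for a gain, since H3K27ac already covered 3600 and 4000 bp in control. Among narrowed promoters, PHC2 had 2208 and 2871 bp of H3K27ac in control and 423 and 693 bp with FOXD2, and HS3ST1 3113 and 3619 bp in control and 2181 and 2009 bp with FOXD2. Both had less H3K27ac in both FOXD2 libraries, although H3K4me1 near HS3ST1 was higher there (2420 and 2200 bp in control, 2992 and 3038 bp with FOXD2). Near FIGLA, the strongest of the appeared promoters, H3K27ac was at 0 bp in all 4 libraries. BCAR3 had 327 and 1518 bp in control and 4000 and 2972 bp with FOXD2.

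Away from promoters the unshared regions were of the same kind. Only 7.17% of FOXD2-only and 7.40% of control-only regions lay at a gene start or end, against 59.4% of shared regions that kept their width. Their median fold enrichment was 5.46 and 5.76, against 73.2 in the control list and 66.7 in the FOXD2 list for the regions that kept their width. In the FOXD2-only regions, an H3K27ac peak was found in 55.1 and 51.1% with the control libraries and in 71.8 and 74.4% with the FOXD2 libraries, a difference of 20.0 percentage points between group means. In control-only regions the shares were 73.4 and 71.4% in control and 71.6 and 74.7% with FOXD2, which overlap. Over all H3K4me3 regions, they were 82.6 and 80.9% in control and 83.0 and 87.6% with FOXD2, so the second FOXD2 library was high there too. H3K4me1 peaks were in nearly all of them: 91.1 and 88.9% of FOXD2-only regions in control and 93.6 and 93.2% with FOXD2. Over all H3K4me3 regions, the H3K4me1 shares were 98.0 and 96.3% in control and 97.5 and 96.9% with FOXD2.

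**Figure D4:**
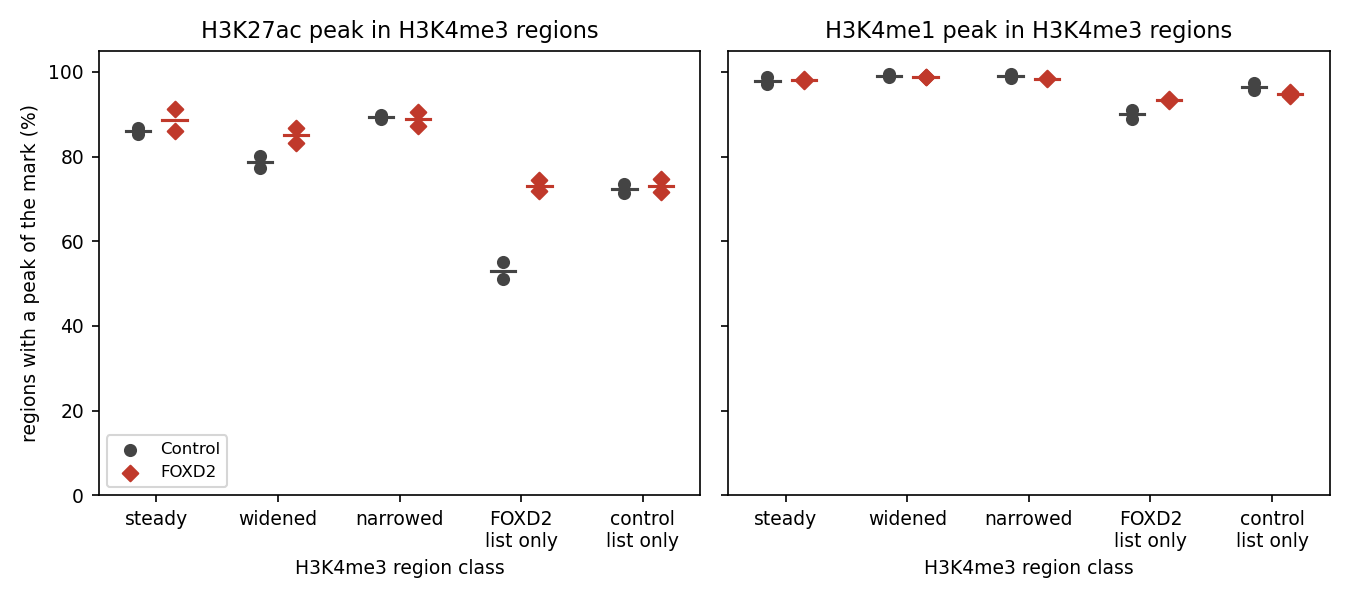
Share of H3K4me3 regions, in percent, that hold a peak of H3K27ac (left) or H3K4me1 (right), by class of region. Each point is 1 library (grey circles control, red diamonds FOXD2, 2 per group) and short lines are group means; the widest gap is for H3K27ac in regions of the FOXD2 list only (55.1 and 51.1% against 71.8 and 74.4%).

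MLL4 peaks were in 28.3 and 30.8% of control-only regions with the control libraries and in 18.3 and 8.40% with the FOXD2 libraries. In FOXD2-only regions they were in 17.9 and 18.9% with control and in 22.6 and 14.2% with FOXD2. The second FOXD2 library of MLL4 was low throughout, with a peak in 11.2% of all H3K4me3 regions against 35.5 to 39.7% in the other 3, and its part in these values was not tested. Sites of tagged FOXD2, from cells with a FLAG and 6xHis construct, were counted where all 4 tag lists had a peak. They overlapped 4.76% of FOXD2-only, 8.35% of control-only and 8.83% of shared regions. Median widths were 331 bp for FOXD2-only and 360 bp for control-only regions. Shared regions were wider, at 1578 bp in the control list and 1522 bp in the FOXD2 list. The part of width in these shares was not tested. Within 2 kb of the start, such a site lay at 1 of 21 widened, 4 of 52 narrowed, 1 of 83 appeared and 6 of 200 lost promoters, against 10.7% of steady ones.

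Some promoters moved far in rank while their width changed by less than 2-fold. The percentile of fold enrichment rose by at least 40 points at 40 of 13108 promoters (0.305%) and fell by at least 40 points at 12 (0.0915%). Since genes can share regions, these are 31 and 10 distinct sets of regions. After FOXD2, the largest rises were at the region shared by ZFTRAF1 and TMEM276 (gene end), from percentile 49.9 to 99.5, and at the region shared by TMUB1 and FASTK, from 48.2 to 95.7. ATG101, a subunit of the autophagy-starting ULK complex, moved from 50.2 to 97.4, and CHCHD3, a scaffold of mitochondrial cristae, from 44.2 to 91.4. The largest falls were at PHAF1, from 95.7 to 46.2, SMYD5, from 98.9 to 54.0, and NVL, an ATPase of ribosome assembly, from 90.0 to 45.2. ASNS, which makes asparagine, moved from 93.5 to 49.7 and SUN1, a protein of the inner nuclear membrane (gene end), from 94.4 to 50.7. Among these promoters the ratio of FOXD2 to control width ran from 0.755 at SMYD5, with 2006 and 1515 bp, to 1.21 at FOXD2. PHAF1 covered 2330 bp in the control list and 2451 bp in the FOXD2 list, and CHCHD3 1205 and 1254 bp.

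**Figure D5:**
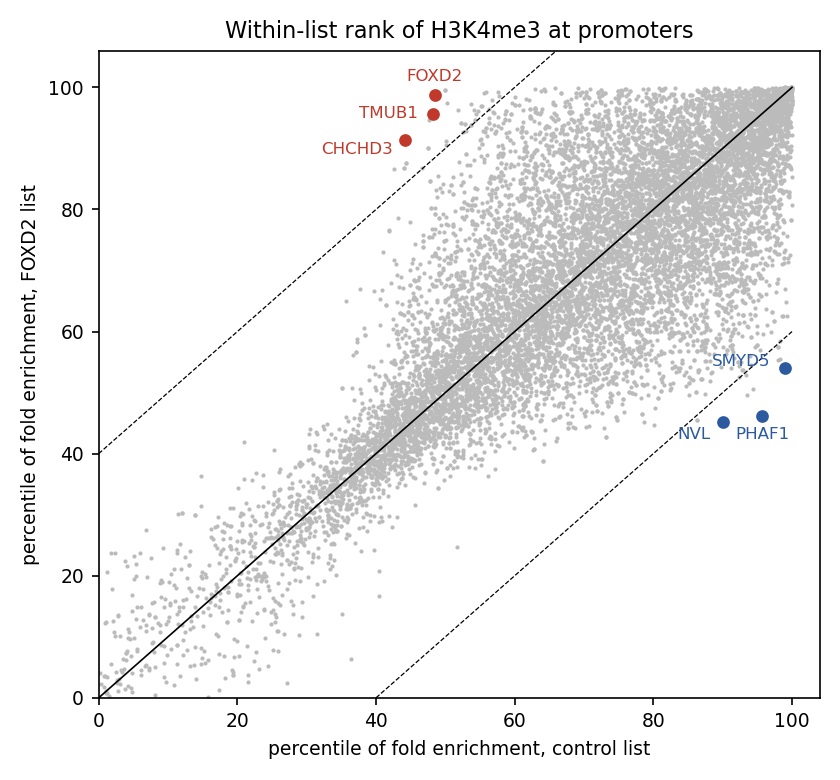
Percentile of fold enrichment among the 20508 shared regions in the FOXD2 list against the control list, for the 13108 promoters marked in both (1 library per group). The solid line is equality and the dashed lines are 40 points from it; FOXD2 moves from 48.5 to 98.7 and PHAF1 from 95.7 to 46.2.

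Of the promoters in both lists, 24 gained at least 1 kb (0.183%) and 67 lost at least 1 kb (0.511%), which are 21 and 60 distinct sets of regions. Some of these wide promoters did not reach 2-fold. TRIB2, a pseudokinase, covered 2127 bp in the control list and 3604 bp in the FOXD2 list, SPRY4, a feedback inhibitor of receptor tyrosine kinases, 6922 and 8366 bp, and the region shared by IL17RB and CHDH 2529 and 4238 bp. TRNP1, a nuclear protein, covered 7714 bp in the control list and 4297 bp in the FOXD2 list, KRT19, a keratin of simple epithelia (gene end), 9412 and 7542 bp, and RARG, a retinoic acid receptor, 4043 and 2204 bp. These genes were picked after their values were seen.

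The bases before the starts differed between the classes. At the 10901 promoters with a listed start, the median was 22 CpG in 250 bases, and 86.7% held more than 10. The median was 6 at widened, 9 at narrowed, 5 at appeared and 7 at lost promoters, and more than 10 CpG were found at 5 of 16, 16 of 37, 16 of 64 and 45 of 129 of them. AQP3, HS3ST1 and FIGLA, shown above, are among the exceptions with many CpG, and CASP4 and MAB21L4 are of the common kind with few. The forkhead motif TGTTTAC, searched on both strands, was in 1.75% of all these promoters, in 0 of 16 widened, 1 of 37 narrowed, 2 of 64 appeared and 4 of 129 lost ones, and in 2.45% of all starts in the table. The run before SSTR5 holds it. These matches describe the letters only.

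Genes of known pathways were in a class about as often as other genes. In 21 lists of 503 genes, chosen with earlier results of these data known, 370 genes had H3K4me3. Of these, 13 (3.51%) had a promoter in any class, against 2.77% of all marked genes. A gene is counted as in a class where any of its promoters is, even if another promoter was steady. The Wnt target list had 17 of 20 genes marked in both lists, none in any class, and a median log2 width ratio of 0.05, against -0.03 for all genes; its largest change was at NKD1, an inhibitor of Wnt signalling (gene end), with 2213 bp in the control list and 3537 bp in the FOXD2 list. Ribosomal protein genes were narrower in the FOXD2 list at 27 and wider at 8 of 35, with a median log2 ratio of -0.09, and cell cycle genes were narrower at 16 and wider at 6 of 22, with a median of -0.11. Over all genes, 7563 were narrower and 4821 wider. For cell cycle genes the largest change was at MCM3, a subunit of the replicative helicase, with 1505 and 777 bp.

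The list of epithelial junction and keratin genes had KRT7 as its only member in a class, and 9 of its 22 marked genes were wider in the FOXD2 list. The mesenchymal list had 1 member in a class: TAGLN, a smooth muscle actin-binding protein (gene end), lost a 525 bp peak. Of the YAP and AP-1 targets, 1 promoter of AJUBA was lost. All 18 marked genes of this list, AJUBA among them, had H3K4me3 in both lists, and 14 of the 18 were narrower in the FOXD2 list. Of the TGF-beta and BMP genes, 1 promoter of SMAD3 narrowed and BMP2, a secreted ligand (gene end), gained a 304 bp peak. Of the 23 marked in both lists, 16 were narrower. OAS1, an interferon-induced enzyme, appeared with 447 bp and CXCL8, a chemokine, was lost with 272 bp. The other members in a class included PHC2 of the Polycomb list (1 promoter, narrowed) and IRX1 of the developmental transcription factors (255 bp, lost). They also included ADAMTS1 of the genes often methylated in colorectal cancer (gene end, 277 bp, appeared), CD68 of the blood markers and RBFOX3 of the neural markers (678 bp, appeared). No member of the intestinal, p53, cell cycle, Notch, H3K4 methyltransferase, demethylase, forkhead or HOX lists was in a class, and with 2.77% of all marked genes in one and 6 to 26 marked genes per list, this does not set those lists apart.

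The H3K4 methyltransferase genes were steady. KMT2A covered 3566 bp in the control list and 3642 bp in the FOXD2 list, KMT2B 4037 and 4042 bp, and SETD1A 2636 and 2780 bp. KMT2C covered 1825 and 1193 bp and KMT2D, which encodes MLL4, 3692 and 4121 bp. SETD1B had no region within 1 kb of either gene end in either list. Among the members of their complexes, DPY30, a subunit common to all of them (gene end), changed most in bp, from 2928 to 2275 bp, while by ratio KMT2C did (0.654 against 0.777).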

How the data were processed

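The authors deposited 1 narrowPeak list per library, called per library on hg38. Per the submitters' processing notes, the tools were MACS2 2.2.7.1, Bowtie2 2.3.4.1, cutadapt 3.4, bedtools and Picard, listed with no order or settings. Column 7 of the deposited lists was read as fold enrichment, a ratio, and columns 8 and 9 as −log10 of p and of q. The largest q-value was 0.00934 in the control list and 0.00993 in the FOXD2 list. Neither read depth nor the library used as background is given in the sources used here. Their part in a weak peak's absence from a list was not tested. Peak names in both H3K4me3 files carry a replicate number that the labels do not.

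Peaks of the 2 H3K4me3 lists on chromosomes 1 to 22 and X (35 control and 30 FOXD2 peaks lie elsewhere) were merged where they overlapped. Fold enrichment was ranked within a list over shared regions only. A promoter is the set of regions within 1 kb of a listed start, or of a gene end for 4162 of 19974 protein-coding genes, and widths were summed. The 2-fold classes follow from the widths alone, and no test was run on them. The region classes were tested on the control list with changes planted in it. The promoter step was tested only by comparing the control list with itself. Tools were Python 3.11.15, pandas 2.3.3 and numpy 2.4.6.

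The members and lists were chosen with earlier results of these data known. Genes named are FOXD2 and the H3K4 methyltransferases, the 10 widened and 10 narrowed regions with the largest change in bp, the 8 appeared and 8 lost with the highest fold enrichment, the 5 largest rises and 5 largest falls in percentile, and in each list up to 4 members in a class, or else the member with the largest change. Values of 2 genes that this rule names are not reported here. Alternatives were other gaps, q thresholds, list lengths, overlaps, fold limits and windows, and leaving out each library of H3K27ac and H3K4me1.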

Additional observations from a re-analysis of the deposited data

How the results depend on the processing

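The counts of widened, narrowed and appeared promoters stayed within 1.5 times the main count under every alternative but 1: a limit of 1.5-fold gave 78 widened and 212 narrowed promoters. Lost promoters numbered 129 with listed starts only, an alternative added after seeing the data. With a gap of 1000 bp the median log2 width ratio was -0.042. Within 1 kb, the H3K4me1 difference (FOXD2 minus control, in points) was 18.2 at widened and -16.9 at lost promoters. With −log10 q of 5 or more, the H3K27ac difference was 25 at FOXD2-only and 3.1 at control-only regions, also added after seeing the data. For these last 5 values the cause was not tested. Leaving out each library in turn, the H3K27ac difference ran from 25.6 to 37.7 points at widened, 21.1 to 29.0 at appeared, -11.9 to 2.8 at narrowed and -12.7 to 10.6 at lost promoters, so the last 2 changed sign. It ran from 18.1 to 22 in FOXD2-only and from -0.9 to 2.2 in control-only regions, where it also changed sign. The H3K4me1 difference kept its sign at all 4 promoter classes, from 20.7 to 31.5 at widened, 24.5 to 33.5 at appeared, -13.0 to -6.6 at narrowed and -14.8 to -11.3 at lost promoters. Of 48 named promoters in a class, 31 kept it under every alternative that applied to them, 5 kept it but had no region left under at least 1 (such as BMP2 and ADAMTS1 at −log10 q of 5 or more and FIGLA with a window of 500 bp), and 12 changed class under at least 1. Where a shared region needed an overlap of 50% of the shorter peak, a promoter without one was counted as both appeared and lost. H3K4me3, with 1 library per group, allowed no pairing. Taken within replicate numbers (replicate block), the mean differences of the other marks are the same by construction. The H3K27ac differences for numbers 1 and 2 were 32.0 and 31.2 points at widened promoters (mean 31.6), 18.0 and 32.1 at appeared, -16.6 and 7.5 at narrowed and -22.8 and 20.8 at lost ones. The H3K4me1 differences had 1 sign in both numbers at each class. The depth of the libraries is unknown, and its part in these results was not tested.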

Other observations

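Beside OAS1, the appeared promoters included 2 more genes known to be induced by interferon, which were picked after their values were seen. RSAD2, which encodes the antiviral protein viperin, had 638 bp of H3K4me3 at a fold enrichment of 10.6 in the FOXD2 list, and SAMD9 had 702 bp at 8.68. H3K4me1 within 2 kb of OAS1 was 0 and 0 bp in the control libraries and 1107 and 1660 bp in the FOXD2 libraries. Near RSAD2 it was 0 and 500 bp in control and 1027 and 1048 bp with FOXD2, and near SAMD9 2748 and 2071 bp in control and 3606 and 3466 bp with FOXD2. All 3 had more H3K4me1 in both FOXD2 libraries, as had 45 of all 83 appeared promoters, while H3K27ac near OAS1 and RSAD2 was at 0 bp in all 4. Of the 25 genes of the interferon and inflammatory list, 20 were marked by H3K4me3 in both lists, 11 of them wider and 9 narrower in the FOXD2 list, OAS1 appeared and CXCL8 was lost.

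Genes whose H3K4me1 or H3K27ac domains differed between the groups in earlier results of these data were mostly in the steady class of H3K4me3 promoters, as were 13035 of all 13391. LPP covered 2654 bp in the control list and 2568 bp in the FOXD2 list, JARID2 5292 and 5177 bp, TMEM154 686 and 697 bp, and HMGA2 (gene end) 4610 and 4289 bp. FGGY was narrower, with 2846 and 2083 bp. Of 3 ZBTB20 promoters, 1 narrowed from 629 to 237 bp. PCDH7 had no H3K4me3 region within 1 kb of its listed start in either list. The widest promoter region, shared by MIDN and ATP5F1D (gene end), held 2 peaks in each list. Together they covered 14029 bp in the control list and 13228 bp in the FOXD2 list. The widest single peak of each list was 13370 bp in control and 9455 bp with FOXD2. EEF1A1 had the highest fold enrichment in both lists, 410 and 240.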
